A study of Mus musculus with 10 samples.

Results

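Pla2g2f, Alox15 and Mgll encode 3 enzymes that act on membrane lipids and their products, and they are described here across 4 sorted cell populations from mouse embryonic stem cell (mESC) cultures. The 3 genes, of 38924 genes counted in each of 10 samples, were chosen by their measured fold changes, which were large and of opposite direction between Foxa2+ and Foxa2- cardiac mesoderm (CM), the mesoderm that forms heart cells. Values for that contrast are therefore given as a description, without a test, and tests are given only for other comparisons. Those against the mean of the CM groups share the CM samples with the choice. All samples came from a single mESC line whose Foxa2 locus also drives a shortened human CD4, the surface protein by which living cells were sorted for Foxa2. At day 5 of differentiation, CM was sorted as Kdr+ Pdgfra+ cells and split into Foxa2+ CM (3 samples) and Foxa2- CM (3 samples), while haematopoietic mesoderm (2 samples) was taken from the same type of culture by its high Kdr, also known as Flk1. These cardiac cultures received Activin A at 8 ng/ml with BMP4 at 1 ng/ml and VEGF at 5 ng/ml. Foxa2+ endoderm (2 samples) was sorted from cultures that received Activin A at 75 ng/ml. Whether samples of 1 group came from separate cultures is not given, so the p-values measure only the spread between these samples, which may be technical.

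Lipid mediators are short-lived signals made on demand from fatty acids held in membrane phospholipids. Phospholipases release the fatty acid, cyclooxygenases and lipoxygenases oxidize it to prostanoids, leukotrienes and hydroxy fatty acids, and these bind receptors on nearby cells. Pla2g2f is a secreted phospholipase A2 known from the outer layers of the skin. Alox15 is a lipoxygenase that oxidizes arachidonic and linoleic acid, also while they are part of a membrane, and is abundant in eosinophils and some macrophages. Mgll, monoacylglycerol lipase, cleaves monoacylglycerols to glycerol and a fatty acid, and in the brain it ends the signal of the endocannabinoid arachidonoylglycerol.

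Positions are those of mm10. Pla2g2f (ENSMUSG00000028749.7) lies on the minus strand of chromosome 4 from 138750533 to 138757626, Alox15 (ENSMUSG00000018924.6) on the minus strand of chromosome 11 from 70344152 to 70352031, and Mgll (ENSMUSG00000033174.11) on the plus strand of chromosome 6 from 88724412 to 88828360. Their merged exons span 2465, 2454 and 5077 bases. Exons of Mgll overlap those of the antisense gene Gm26588, whose reads cannot be told apart from those of Mgll without strand, but Gm26588 had 16 counts over all 10 samples. Promoter sequences were taken from RefSeq (GRCm38.p6), which held entries for 2 of the 3 genes, the missing entry being Alox15. The bases that end at the base before the gene start are shown for the pair that was higher in Foxa2+ CM, because the populations were sorted by the forkhead factor Foxa2. They were searched on both strands for forkhead letters, which are TGTTTAC and the close forms TGTTTGC and further TATTTAC, and for GATA letters, which are AGATAA and further TGATAA, and capitals mark a match.
Pla2g2f: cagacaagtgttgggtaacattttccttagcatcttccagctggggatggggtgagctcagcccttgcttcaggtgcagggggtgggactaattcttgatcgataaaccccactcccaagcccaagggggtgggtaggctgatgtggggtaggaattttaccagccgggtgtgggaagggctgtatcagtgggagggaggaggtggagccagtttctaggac
Mgll: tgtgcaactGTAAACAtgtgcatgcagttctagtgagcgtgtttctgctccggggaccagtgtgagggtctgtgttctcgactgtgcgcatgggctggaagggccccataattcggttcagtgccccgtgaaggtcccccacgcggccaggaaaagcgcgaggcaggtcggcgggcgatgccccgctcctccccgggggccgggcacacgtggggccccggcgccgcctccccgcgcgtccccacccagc
The first is chr4:138757627-138757848 on the minus strand, and neither set of letters occurred in its 222 bases. The second is chr6:88724162-88724411 on the plus strand, 250 bases, with 1 forkhead match (TGTTTAC read on the other strand) that began 241 bases before the gene start and no GATA match. A further RefSeq start inside Mgll had neither. Forkhead letters occurred in 9.73% of 32851 RefSeq promoters over 250 bases before the start, TGTTTAC in 3.17% and GATA letters in 16.6%. A match is a run of letters and not a binding site, and its absence says only that the letters are not in this window.

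The samples held 10926284 to 17470126 counts on genes, and 3 counts, taken as the smallest signal, stood at 0.172 to 0.275 CPM (counts scaled to the normalized library size). Intervals and floors cover counting error only. Foxa2 itself stood at 20, 16 and 3.5 CPM in Foxa2+ CM replicates 1, 2 and 3, at 0.873 to 2.54 CPM in Foxa2- CM, at 183 and 186 CPM in endoderm and at 0.690 and 0.788 CPM in haematopoietic mesoderm. Foxa2+ CM replicate 3 was thus far below the other 2 Foxa2+ CM samples, though above each Foxa2- CM sample, and values without it are given with the results. All 8 CM markers, Kdr and Pdgfra among them, were present in every CM sample, the 9 endoderm markers summed to 1277 and 1521 CPM in endoderm against 197 to 365 CPM in CM, and the 8 haematopoietic and endothelial markers to 1226 and 1542 CPM in haematopoietic mesoderm against 289 to 507 CPM in CM. The endoderm samples also held Nanog, Sox2 and Pou5f1 of the pluripotent list (156 to 162, 90.9 to 102 and 107 to 117 CPM). Of the node and notochord list they held Chrd, Foxj1, T and Noto (198 to 251, 44.8 to 67.3, 131 to 178 and 5.40 to 5.44 CPM). Other members of these lists went the other way. Zfp42 (2.05 to 2.26 CPM) and Nog (0.466 to 1.42 CPM) were lower in endoderm than in every CM sample. Dppa3 and Shh were at most 0.0837 and 0.92 CPM in endoderm.

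Pla2g2f, which releases fatty acids outside the cell, was highest in Foxa2+ CM and near the counting floor in endoderm. It stood at 19.2, 19.6 and 17.0 CPM in Foxa2+ CM (263, 339 and 302 counts) and at 2.60, 1.75 and 1.52 CPM in Foxa2- CM (42, 22 and 27 counts). It stood at 0.816 and 0.551 CPM in haematopoietic mesoderm (13 and 7 counts) and at 0.186 and 0.0837 CPM in endoderm (2 and 1 counts). No sample of 1 group overlapped another group, and the order was Foxa2+ CM, Foxa2- CM, haematopoietic mesoderm, endoderm. The means were 18.6 ± 1.39 CPM in the Foxa2+ group and 1.96 ± 0.568 CPM in the Foxa2- group (SD, n = 3 each), a log2 FC (fold change) of 3.25 (standard error, SE, 0.21) or 9.5-fold. The same-numbered samples differed by 2.89, 3.49 and 3.48 on the log2 scale. Since the RNA was from bulk populations, fewer cells with a transcript and less of it per cell cannot be told apart. The endoderm level rests on 3 counts, so the ratio of Foxa2+ CM to endoderm was 140 with a 95% counting interval (exact) from 47.9 to 682.

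Alox15, the lipoxygenase, had the opposite order within CM. It stood at 9.28, 13.4 and 10.6 CPM in Foxa2+ CM (127, 232 and 188 counts) and at 86.3, 93.0 and 59.0 CPM in Foxa2- CM (1393, 1171 and 1045 counts). It stood at 58.5 and 51.3 CPM in endoderm (628 and 613 counts) and at 23.2 and 9.53 CPM in haematopoietic mesoderm (370 and 121 counts). Foxa2- CM and endoderm formed the upper end of the range, with the lowest Foxa2- CM sample barely above the highest endoderm sample, and the samples of haematopoietic mesoderm and Foxa2+ CM overlapped at the lower end. Foxa2+ endoderm and Foxa2+ CM, both sorted for Foxa2, were thus far apart in Alox15. The means were 11.1 ± 2.12 CPM in the Foxa2+ group and 79.4 ± 18.0 CPM in the Foxa2- group (SD, n = 3 each), a log2 FC of -2.83 (SE 0.20) or 7.09-fold lower. The same-numbered samples differed by -3.22, -2.79 and -2.48 on the log2 scale. For this gene the replicates lay farthest apart, relative to their mean, in haematopoietic mesoderm.

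Mgll, the lipase, was well above the counting floor in 3 of the 4 groups. It stood at 45.1, 50.8 and 43.9 CPM in Foxa2+ CM (617, 877 and 778 counts) and at 13.9, 12.9 and 16.4 CPM in Foxa2- CM (225, 162 and 290 counts). It stood at 5.33 and 4.96 CPM in haematopoietic mesoderm (85 and 63 counts) and at 0.0932 and 0.669 CPM in endoderm (1 and 8 counts). The groups kept the order seen for Pla2g2f and did not overlap. The means were 46.6 ± 3.66 CPM in the Foxa2+ group and 14.4 ± 1.80 CPM in the Foxa2- group (SD, n = 3 each), a log2 FC of 1.69 (SE 0.12) or 3.23-fold. The same-numbered samples differed by 1.69, 1.98 and 1.42 on the log2 scale. The difference between the CM groups was thus smaller for Mgll than for Pla2g2f, while the ratio of Foxa2+ CM to endoderm was 118 with a 95% counting interval from 61.9 to 258. Against the endoderm samples 1 and 2 taken singly the ratio was 500 and 69.6, so the spread between these samples was wider than the counting interval.

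**Figure D1:**
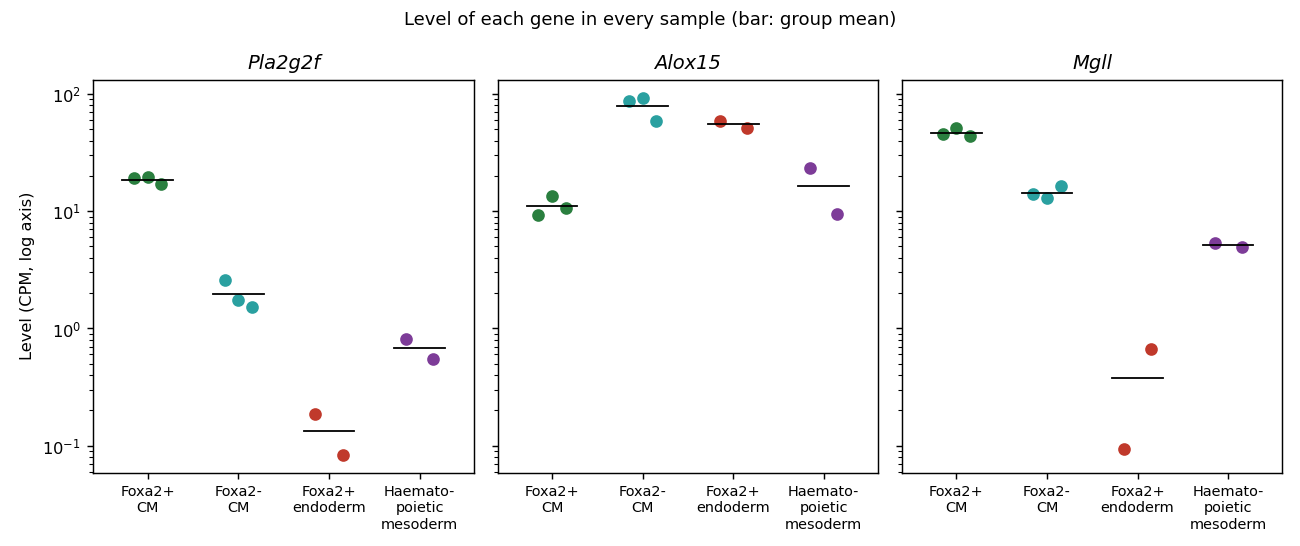
Level of Pla2g2f, Alox15 and Mgll in CPM on a log axis, 1 point per sample in each of the 4 groups, with a bar at the group mean. Pla2g2f and Mgll fall from Foxa2+ CM to endoderm without overlap between groups, while Alox15 is highest in Foxa2- CM (59.0 to 93.0 CPM) and endoderm (51.3 and 58.5 CPM).

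Foxa2+ CM replicate 3, the sample with little Foxa2, did not stand apart in these genes. It had 17.0 CPM of Pla2g2f, 10.6 CPM of Alox15 and 43.9 CPM of Mgll, the lowest of its group by a small margin for Pla2g2f and Mgll and the middle one for Alox15. Without it the log2 FCs between the CM groups were 3.31 for Pla2g2f, -2.79 for Alox15 and 1.74 for Mgll. Over all fits that left out 1 sample they ranged from 3.09 to 3.49, from -3.00 to -2.71 and from 1.61 to 1.81. The genes were chosen with Foxa2+ CM replicate 3 included, so these close values are in part set by the choice and are a description.

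Per kb of merged exon, which allows the genes to be compared with each other, Foxa2+ CM held the 3 transcripts at similar levels and Foxa2- CM held mainly Alox15. The mean levels in Foxa2+ CM were 7.56 CPM per kb for Pla2g2f, 4.53 for Alox15 and 9.17 for Mgll. In Foxa2- CM they were 0.794, 32.4 and 2.83 CPM per kb. The ratio of Pla2g2f to Alox15 per kb was 2.06, 1.45 and 1.60 in the Foxa2+ CM samples and 0.0300, 0.0187 and 0.0257 in the Foxa2- CM samples. Every Foxa2+ CM sample thus held more Pla2g2f than Alox15 per kb, and no other sample did. The ratio of Mgll to Alox15 per kb was 2.35, 1.83 and 2.00 in Foxa2+ CM and 0.0781, 0.0669 and 0.134 in Foxa2- CM. In endoderm the means were 0.0548 CPM per kb for Pla2g2f, 22.4 for Alox15 and 0.0751 for Mgll, and in haematopoietic mesoderm 0.277, 6.67 and 1.01, so that Alox15 led in both. Merged exons overstate the length of a transcript that uses few of them, which the counts do not resolve.

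**Figure D2:**
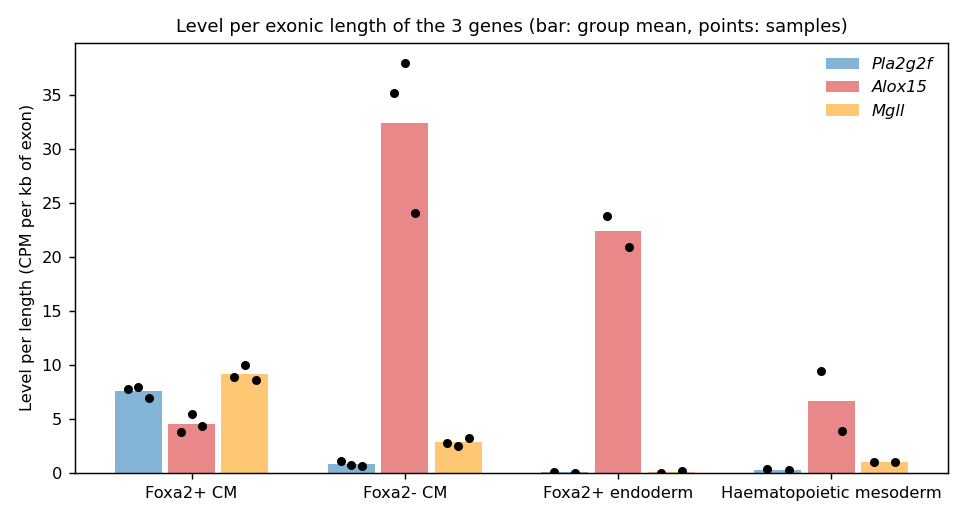
Level in CPM per kb of merged exon of the 3 genes in each group, with bars at the group mean and 1 point per sample. The 3 bars are of similar height in Foxa2+ CM (4.53 to 9.17 CPM per kb), and Alox15 is the tallest bar in the other 3 groups.

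Endoderm was compared with haematopoietic mesoderm, groups that were not used to choose the genes, in a fit in which all 10 samples set the expression filter and the spread. Mgll was lower and Alox15 higher in endoderm, both past the quasi-likelihood test of edgeR, adjusted by Benjamini-Hochberg over 16180 genes, against 32.6% of all genes tested. Pla2g2f passed the expression filter only through the CM samples, in which it was high, so its values here and in the next comparisons are a description. The log2 FC of endoderm over haematopoietic mesoderm was -3.68 for Mgll (SE 0.43, adjusted p = 0.000235 by edgeR). For Alox15 it was 1.73 (SE 0.37, adjusted p = 0.00576 by edgeR). In a fit of only the 4 samples of these groups, Mgll was at -3.69 and passed (adjusted p = 0.0306 by edgeR), while Alox15 was at 1.74 and did not (adjusted p = 0.0557 by edgeR, in a range from 1.62e-05 to 0.0557 over 15 alternatives). For Pla2g2f the log2 FC was -2.31 (SE 0.57), from 20 counts in haematopoietic mesoderm and 3 in endoderm, and lay between -2.94 and -1.84 when 1 sample was left out. The Mgll value was -2.94 without endoderm replicate 1 and -5.66 without endoderm replicate 2, and passed in both fits. For Alox15 it was between 1.24 and 2.52 when 1 sample was left out.

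Endoderm was also compared with the mean of the 2 CM groups, a contrast that does not depend on the difference between them. The choice did use the CM samples, and a gene nearly silent in both CM groups could not have been chosen. A higher level in CM is thus in part set by the choice, and the p-values do not allow for that. Mgll and Alox15 passed, against 37.2% of all genes tested. Mgll had a log2 FC of -6.01 (SE 0.38, adjusted p = 4.64e-06 by edgeR), and Pla2g2f, as a description, one of -5.42 (SE 0.43). Alox15 was 1.85-fold higher in endoderm (log2 FC 0.88, SE 0.28, adjusted p = 0.0323 by edgeR). The CM mean lies between 2 very different Alox15 levels, and the endoderm samples stood above every Foxa2+ CM sample and below every Foxa2- CM sample. With the replicate number as a block, Alox15 did not pass (log2 FC 0.75, adjusted p = 0.0788 by edgeR), nor did it without Foxa2+ CM replicate 1 (adjusted p = 0.0662 by edgeR), Foxa2+ CM replicate 3 (0.0584), Foxa2- CM replicate 1 (0.0538), endoderm replicate 1 (0.195) or endoderm replicate 2 (0.0928), in a range from 0.00377 to 0.195 over 14 alternatives. The value for Mgll was -5.29 without endoderm replicate 1 and -8.01 without endoderm replicate 2, and passed in both fits, while that for Pla2g2f was -6.07 and -4.97.

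Haematopoietic mesoderm was lower than the CM mean in Mgll, which passed the test, as did 25.7% of all genes tested. The choice by the CM samples limits this comparison in the same way. The log2 FC was -2.33 for Mgll (SE 0.26, adjusted p = 0.000327 by edgeR) and, as a description, -3.11 for Pla2g2f (SE 0.31). For Alox15 it was -0.85 (SE 0.31, adjusted p = 0.0739 by edgeR), and it passed by DESeq2 (-0.87, adjusted p = 0.0191), without the expression filter (-0.87, adjusted p = 0.0382 by edgeR), without Foxa2- CM replicate 3 (-0.94, 0.0482) and without haematopoietic mesoderm replicate 1 (-1.64, 0.00493), in a range from 0.00493 to 0.345 over 14 alternatives. These 3 comparisons share samples and are not independent of each other.

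The other genes of the lipid mediator pathways were taken from 7 lists of 116 genes, of which 85 passed the expression filter in the 6 CM samples. Between Foxa2+ and Foxa2- CM, 7 were higher and 4 lower in the main fit, which did not pair the samples by replicate number. This is 12.9% of those tested against 6.48% of all genes tested (3.81% higher and 2.66% lower). The median log2 FC was 0.05 over the lists and -0.00 over all 15284 genes tested. The 7 higher genes became 3 without Foxa2+ CM replicate 1, 1 without Foxa2+ CM replicate 2, 2 without Foxa2- CM replicate 1, 2 without Foxa2- CM replicate 2 and 12 without Foxa2- CM replicate 3. The 4 lower genes became 2 without Foxa2+ CM replicate 2 and 1 without Foxa2- CM replicate 2. With the replicate block 16 were higher and 8 lower, against 16.7% of all genes in that fit. At an unadjusted p under 0.05 edgeR had 19.2% of all genes, and DESeq2 called 8.66%. Of the 6 fits that each left out 1 CM sample, Sgpp1 passed in 6, Pnpla6 and Cyp2s1 in 5, Pla2g7 in 4, Pafah2, Slco2a1 and Pnpla2 in 2, Ptger1 in 1 and Alox12e in 0. With all 10 samples in 1 model Sgpp1 passed (adjusted p = 0.0331 by edgeR) and Tbxas1 did not. Tbxas1 and Ptgdr passed the expression filter only through Foxa2+ CM, and Alox12e only through Foxa2- CM. The counts include these genes, but their own values are a description.

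Pla2g2f was picked for its large change between the CM groups, so its distance from the other secreted phospholipases and their receptor reflects that choice. Only 4 of the 11 other genes on that list passed the expression filter. Of those not tested, Pla2g2d was higher and Pla2g2e lower in the Foxa2+ group. The CM groups overlapped for neither, and both genes were near the counting floor. Of 4 other genes tested 0 passed the test of edgeR, 0 passed by DESeq2 and 0 had an unadjusted p under 0.05. The shares of all genes were 6.48%, 8.66% and 19.2%, so 4 genes are too few to read a result from. The receptor Pla2r1 stood at 2.56, 2.43 and 9.53 CPM in Foxa2+ CM and at 3.65, 3.02 and 13.5 CPM in Foxa2- CM, highest in replicate 3 of both groups. Of 12 intracellular phospholipases and hydrolases of platelet-activating factor (PAF), 2 were higher and 1 lower by edgeR, against 3.81% higher and 2.66% lower of all genes tested. Pla2g7, the secreted PAF acetylhydrolase, stood at 1.54, 0.752 and 1.41 CPM in Foxa2+ CM and at 3.72, 3.65 and 4.46 CPM in Foxa2- CM, a log2 FC of -1.68 (SE 0.29, adjusted p = 0.0148 by edgeR). The changes of Pafah2, an intracellular PAF hydrolase, and Pnpla6, a lysophospholipase, were small, 0.40 and 0.41 on the log2 scale (adjusted p = 0.0284 and 0.00735 by edgeR). The cytosolic phospholipase Pla2g4a, which supplies most arachidonic acid for prostanoids in many cells, stood at 2.56 to 4.68 CPM in Foxa2+ CM and 4.4 to 5 CPM in Foxa2- CM (adjusted p = 0.695 by edgeR). Pla2g6, its calcium-independent relative, had a log2 FC of 0.23 (adjusted p = 0.0688 by edgeR).

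Of 9 other lipoxygenase and leukotriene genes tested, 1 was lower in Foxa2+ CM and 0 were higher by edgeR, against 6.48% of all genes tested. DESeq2 called 0, against 8.66%. At an unadjusted p under 0.05, 1 was lower and 0 were higher, against 19.2%. The lower gene by edgeR was Alox12e, an epidermal-type lipoxygenase and a neighbour of Alox15, with 3 to 6 counts per sample in Foxa2+ CM and 9 to 15 in Foxa2- CM. It passed the expression filter only through Foxa2- CM, so its log2 FC of -1.39 (SE 0.32) is a description. By DESeq2 it did not pass (adjusted p = 0.331). Alox5, which starts leukotriene synthesis, stood at 1.3 to 2.31 CPM in Foxa2+ CM and 1.69 to 3.10 CPM in Foxa2- CM (adjusted p = 0.465 by edgeR). Its partner Alox5ap and the platelet-type Alox12 did not pass either (adjusted p = 0.613 and 0.312 by edgeR). Gpx4, the peroxidase that reduces lipid hydroperoxides in membranes, stood at 15.8 to 19.1 CPM in Foxa2+ CM and 16.1 to 20.3 CPM in Foxa2- CM (adjusted p = 0.904 by edgeR).

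Of 20 prostanoid genes tested 4 were higher and 0 lower by edgeR, against 3.81% higher and 2.66% lower of all genes tested. By DESeq2 5 were higher and 0 lower, against 8.66% in either direction. At an unadjusted p under 0.05 also 5 were higher and 0 lower, against 19.2%. The 4 include Tbxas1 and Ptgdr, whose values are a description, so the count is not read as a result. Tbxas1, thromboxane synthase, stood at 1.75, 2.14 and 1.35 CPM in Foxa2+ CM and at 0.248, 0.238 and 0.282 CPM in Foxa2- CM. Its log2 FC, as a description, was 2.73 (SE 0.32). Ptgdr, a prostaglandin D receptor, stood at 2.27, 4.75 and 3.95 CPM in Foxa2+ CM and at 0.557, 0.556 and 1.13 CPM in Foxa2- CM. Its log2 FC, as a description, was 2.26 (SE 0.39). Both were low in counts, with 3 to 5 counts of Tbxas1 in each Foxa2- CM sample, and in neither gene did the groups overlap. Both passed the expression filter only through Foxa2+ CM, in which they were high. Slco2a1, which carries prostaglandins into cells, stood at 11 to 12 CPM in Foxa2+ CM and 3.65 to 6.94 CPM in Foxa2- CM (log2 FC 1.27, adjusted p = 0.0317 by edgeR). Ptger1, a prostaglandin E receptor, stood at 35.3 to 39.4 CPM and 19.3 to 29.1 CPM (log2 FC 0.67, adjusted p = 0.0438 by edgeR). The cyclooxygenases, which make the common precursor of all prostanoids, did not pass (Ptgs1 adjusted p = 0.637, Ptgs2 adjusted p = 0.450 by edgeR).

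Among 16 other endocannabinoid and monoacylglycerol genes, the list of Mgll, 1 was higher and 0 lower by edgeR, against 6.48% of all genes tested. DESeq2 called 2 higher (Pnpla2 and Cnr1) and 0 lower, against 8.66%. An unadjusted p under 0.05 was reached by 6 higher and 2 lower genes, against 19.2% of all genes. With the replicate block 4 were higher and 1 lower, against 16.7%. Pnpla2, the lipase that starts the breakdown of stored triglyceride, stood at 35.3 to 38.5 CPM in Foxa2+ CM and 25.6 to 29.2 CPM in Foxa2- CM (log2 FC 0.44, SE 0.09, adjusted p = 0.0239 by edgeR). Abhd6 and Abhd12, which also hydrolyse arachidonoylglycerol, had log2 FCs of 0.46 and 0.05 (adjusted p = 0.121 and 0.767 by edgeR). Daglb, which makes it from diacylglycerol, stood at 31.1 to 31.7 CPM in Foxa2+ CM and 29.1 to 35.4 CPM in Foxa2- CM, and Dagla, its paralogue, was below the expression filter. The receptor Cnr1 stood at 22.3, 25.2 and 9.36 CPM in Foxa2+ CM and at 7.62, 7.38 and 4.46 CPM in Foxa2- CM, groups that did not overlap. It just missed the threshold in the main fit (log2 FC 1.56, adjusted p = 0.0507 by edgeR). With the replicate block it passed (log2 FC 1.49, adjusted p = 4.4e-05 by edgeR). Faah, which hydrolyses the endocannabinoid anandamide, had a log2 FC of 0.93 (adjusted p = 0.180 by edgeR).

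In the remaining lists, 1 of 18 lysophospholipid and sphingosine phosphate genes and 1 of 6 epoxide pathway genes were lower in Foxa2+ CM by edgeR. None was higher, against 6.48% of all genes tested in either direction. With the replicate block 3 were higher and 3 lower in the former list and 1 higher and 2 lower in the latter, against 16.7%. At an unadjusted p under 0.05, 4 were higher and 3 lower in the former list and 1 higher and 2 lower in the latter, against 19.2% of all genes. DESeq2 called 3 higher and 1 lower in the former and 0 higher and 1 lower in the latter, against 8.66%. Sgpp1, a sphingosine phosphate phosphatase, stood at 0.731, 0.637 and 0.959 CPM in Foxa2+ CM and at 3.34, 4.92 and 3.56 CPM in Foxa2- CM (log2 FC -2.32, SE 0.27, adjusted p = 0.00440 by edgeR). Cyp2s1, a cytochrome P450, stood at 17.2, 20.3 and 11.7 CPM in Foxa2+ CM and at 43.2, 46.3 and 34.6 CPM in Foxa2- CM (log2 FC -1.33, SE 0.20, adjusted p = 0.00988 by edgeR). Both were thus on the side of Alox15.

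**Figure D3:**
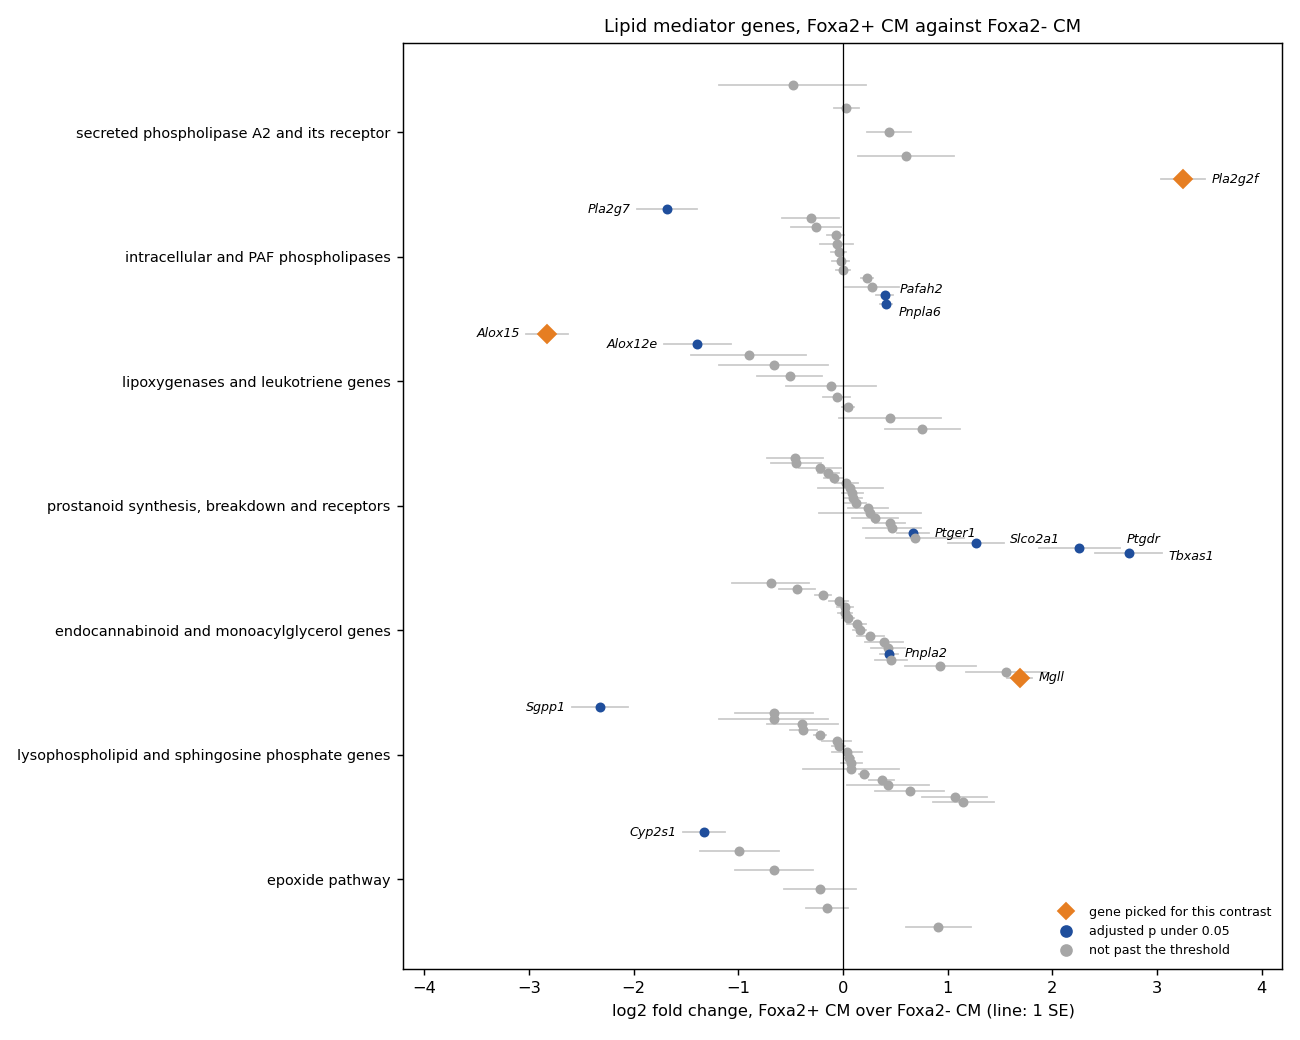
Log2 fold change of Foxa2+ CM over Foxa2- CM with 1 standard error for every gene tested in the 7 lists. Pla2g2f, Alox15 and Mgll (diamonds) were picked for this contrast, and of the 85 other genes 7 lie past the threshold on the right and 4 on the left.

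Of 15 fixed steps next to the 3 enzymes, Pla2g4a, Cnr1 and Alox5 among them, 14 could be tested between the CM groups. In the main fit of edgeR 0 passed, against 6.48% of all genes tested. At an unadjusted p under 0.05 there were 4, all higher in Foxa2+ CM, against 19.2% of all genes, and DESeq2 called 1, Cnr1, against 8.66%. With the replicate block 4 of the 14 passed, against 16.7% of all genes, all higher in Foxa2+ CM. They were Cnr1 (log2 FC 1.49, adjusted p = 4.4e-05 by edgeR), Faah (0.92, 0.0186), Pla2g6 (0.23, 0.0234) and Abhd6 (0.47, 0.0426).

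**Figure D4:**
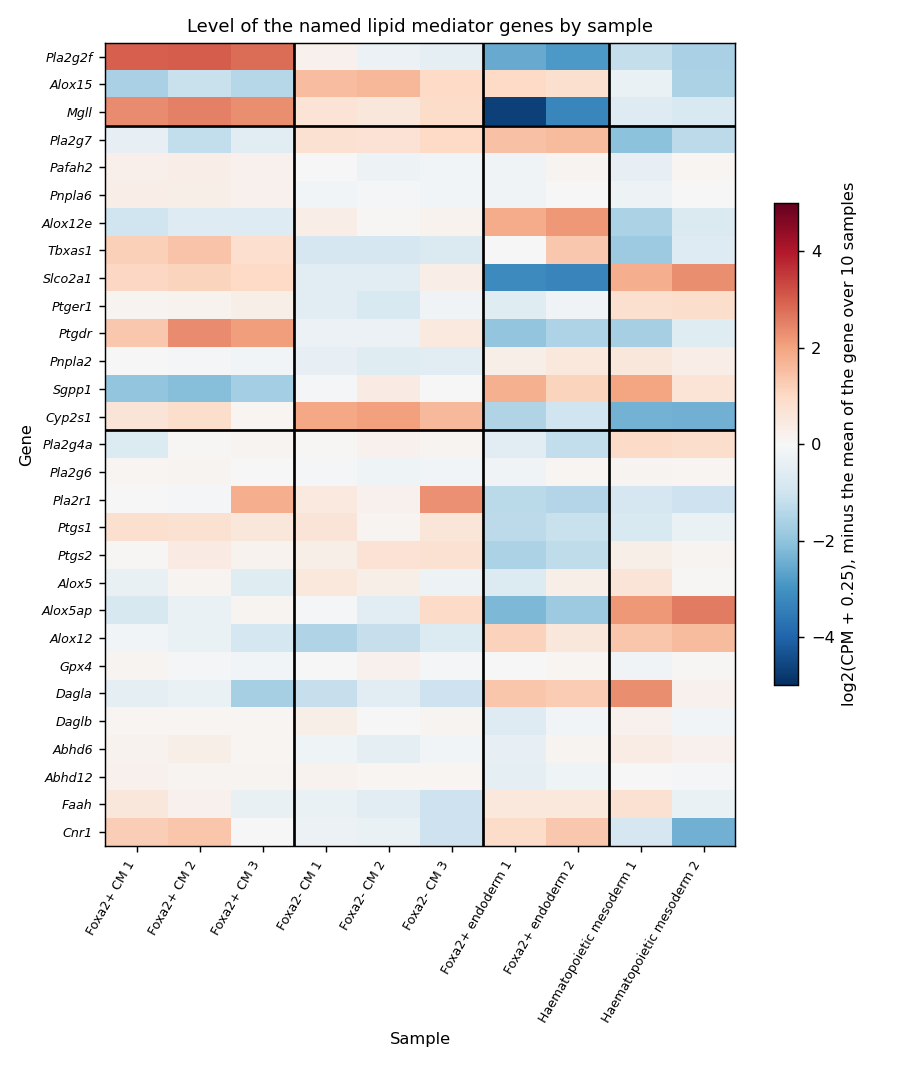
Log2(CPM + 0.25) of the 3 genes, the 11 list genes past the threshold between the CM groups and the 15 fixed steps in each of the 10 samples, as the difference from the mean of the gene over the samples. Pla2g2f and Mgll are above their mean in the 3 Foxa2+ CM samples and far below it in both endoderm samples, and Alox15 is below its mean in Foxa2+ CM.

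Around Pla2g2f, 6 genes start or end within 100 kb, 4 of them other secreted phospholipase genes, and with none past the expression filter in CM they were not tested there. Pla2g2d, 18.1 kb away, stood at 0.292 to 0.463 CPM in Foxa2+ CM and 0.0564 to 0.124 CPM in Foxa2- CM, without overlap and close to the counting floor. Pla2g5, 41.6 kb away, had at most 0.231 CPM in any CM sample and 1.3 and 2.84 CPM in endoderm, the group in which Pla2g2f was lowest. Around Alox15, 6 of 9 genes were tested and 1, Alox12e at 21.5 kb, was lower in Foxa2+ CM by edgeR, against 6.48% of all genes tested. DESeq2 called 0 of them, against 8.66%. Pelp1, Arrb2 and Med11 had log2 FCs between -0.05 and -0.02. Around Mgll, 4 of 7 genes were tested and 0 passed the test of edgeR, 0 passed by DESeq2 and 0 had an unadjusted p under 0.05. The shares of all genes were 6.48%, 8.66% and 19.2%, so 4 genes are too few to read a result from. Abtb1 at 7.6 kb was at 0.14 (adjusted p = 0.278 by edgeR) and Mcm2 at -0.03 (adjusted p = 0.933 by edgeR).

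Genes whose level followed each enzyme most closely were ranked by Pearson's r of log2 CPM over the 10 samples over the 14326 genes that averaged 1 CPM or more. The samples fall into 4 groups, so r describes mainly the pattern of the group levels and is given without a p. For Pla2g2f the 5 closest were Hs3st1 (r = 0.985), Il1rap (0.979), Smpd2 (0.974), Isoc2a (0.971) and Khk (0.967). Hs3st1, a heparan sulfate sulfotransferase, had means of 31.1 CPM in Foxa2+ CM, 3.90 in Foxa2- CM, 0.754 in endoderm and 1.99 in haematopoietic mesoderm. For Alox15 they were Itpk1 (0.956), Gjc1 (0.940), Morn2 (0.940), Arih2 (0.936) and Fam184b (0.933), which spanned smaller ranges. For example, Itpk1, an inositol phosphate kinase, had means of 52.9 CPM in Foxa2+ CM and 78.5 in Foxa2- CM. For Mgll they were Arhgap36 (0.992), Rcor3, Cpne2 and Tead4 (0.988 each) and H6pd (0.987). Arhgap36 had means of 122 CPM in Foxa2+ CM, 60.6 in Foxa2- CM, 36.7 in haematopoietic mesoderm and 4.61 in endoderm.

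Markers of cell types in which these enzymes are well known were near 0. Of 7 macrophage and eosinophil markers, Adgre1 had no count in any sample, Ptprc and Siglecf were at most 0.251 CPM and the summed level of 9.93 to 15 CPM in Foxa2+ CM and 9.42 to 13.7 CPM in Foxa2- CM was nearly all Cd68, a lysosomal protein also made by other cells. The eosinophil peroxidase gene Epx stood at 0 to 0.116 CPM in Foxa2+ CM and 0.248 to 0.564 CPM in Foxa2- CM. Of 5 markers of stratified epithelium, Krt5 had no count in CM or haematopoietic mesoderm and the sum, 16.1 to 16.4 CPM in Foxa2+ CM and 14.4 to 16.5 CPM in Foxa2- CM, was nearly all Krt10. Definitive endoderm markers summed to 197 to 283 CPM in Foxa2+ CM and 214 to 365 CPM in Foxa2- CM, ranges that overlap. The 5 pluripotent markers summed to 44.8 to 51.6 CPM in Foxa2+ CM and 78.0 to 118 CPM in Foxa2- CM, without overlap, to 368 and 373 CPM in endoderm and to 26.2 and 46.5 CPM in haematopoietic mesoderm. Between the CM groups edgeR called 3 of 9 definitive endoderm markers, a list that holds Foxa2, the gene of the sort. It called 2 of 4 pluripotent and 1 of 8 haematopoietic and endothelial markers tested. None of 4 visceral endoderm and 3 node and notochord markers tested passed in this fit, against 6.48% of all genes tested. Of the node and notochord markers DESeq2 called Nog lower in Foxa2+ CM, against 8.66%. With the replicate block T was higher and Nog lower, against 16.7%. Of the 8 CM markers 4 passed the test of edgeR between the CM groups, against 6.48% of all genes tested. DESeq2 called 1 CM marker higher and 4 lower, against 8.66%. The ranges of CM markers in Foxa2+ CM and Foxa2- CM did not overlap for Mesp1 (3.72 to 7.06 and 23.2 to 62.9 CPM), Isl1 (1.97 to 4.68 and 16.1 to 26.6 CPM), Hand1 (54.4 to 115 and 151 to 177 CPM) and Pdgfra (201 to 247 and 259 to 306 CPM). Nor, in the other direction, did they for Nkx2-5 (20.1 to 29.1 and 10 to 14.2 CPM). The part of any of these in the levels of Pla2g2f, Alox15 and Mgll was not tested.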

How the data were processed

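RNA from 10 samples of sorted cells was sequenced by the authors with unstranded TruSeq v2 libraries as 50 nt single-end reads. Reads were aligned to mm10 with STAR 2.5.0a, duplicates were removed with Picard and reads were counted with HTSeq 0.6.0. The values deposited by the authors are raw counts per gene. Removing duplicates without molecular identifiers can compress high counts, and the strand setting of the counting is not given in the sources used here. Between 72.2% and 80.5% of uniquely aligned reads fell on genes, and the other rows were left out of library sizes.

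From these counts, differences were tested with edgeR 4.0.16 in R 4.3.3 (TMM factors, filterByExpr defaults, quasi-likelihood test, Benjamini-Hochberg adjustment over all genes tested, threshold 0.05). The 6 CM samples were fitted alone, and the 10 samples were fitted together for the comparisons with the other groups. Standard errors were worked back from the test statistic. DESeq2 (version 1.42.0 here), also the tool of the study, its size factors, no expression filter, a replicate block, other sample sets and leaving out each sample were the alternatives. The fit was tested on simulated counts. Symbols, positions and exon lengths were those of GENCODE M21, which is later than the annotation of the authors but on the same build and named 37607 genes. Tables and plots used pandas 2.3.3 and matplotlib 3.10.9.

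The 3 genes and the gene lists were chosen with earlier results of these data known. Named genes are the 3 genes, the list genes past the threshold between the CM groups (at most 10 per direction), 15 fixed steps, the 5 genes closest in pattern to each, genes within 100 kb, and Foxa2. Replicate numbers came from the labels. Deviations of same-numbered Foxa2+ and Foxa2- CM samples from their group means correlated at 0.542, 0.109 and 0.633 over 14059 genes, all above the limit of 0.1. The numbers were therefore taken as pairs for the same-numbered differences and the replicate block. The main fits did not use the pairs. No samples of a group agreed within sampling noise.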

Additional observations from a re-analysis of the deposited data

How the results depend on the processing

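Of 269 alternative values for Pla2g2f, Alox15, Mgll and the list totals, 236 counted as unchanged, and no value for the 3 genes changed sign. Between the CM groups a log2 FC of the 3 genes was unchanged if it moved by less than the SD of log2 CPM within those groups. In the other comparisons it had to keep the direction and side of the threshold of the main value. A total had to lie within 1.5 times of the main value. The balance of the list totals between the CM groups did turn, from 7 higher and 4 lower to 1 and 2 without Foxa2+ CM replicate 2 and to 2 and 3 without Foxa2- CM replicate 1. The replicate block changed the call of Alox15 in endoderm over the CM mean (log2 FC 0.75) and the list counts between the CM groups (16 higher, 8 lower), and no other call of the 3 genes. Between the CM groups the lists held 12 higher genes by DESeq2 and 3 with all 10 samples in 1 model. With only the 4 samples of endoderm and haematopoietic mesoderm, Alox15 stood at 1.74 (adjusted p = 0.0557 by edgeR, in a range from 1.62e-05 to 0.0557 over 15 alternatives), the lists held 17 higher and 10 lower genes, and Pla2g2f fell below the expression filter and has no value. Alox15 in haematopoietic mesoderm over the CM mean was -0.87 by DESeq2 (adjusted p = 0.0191) and -0.87 without the expression filter (adjusted p = 0.0382 by edgeR), and passed under both. The cause of these shifts was not tested.

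With 1 sample left out, Pla2g2f in endoderm over haematopoietic mesoderm ranged from -2.94 to -1.84, Alox15 in endoderm over the CM mean from 0.76 to 0.96 and Alox15 in haematopoietic mesoderm over the CM mean from -1.64 to -0.38. List counts ranged from 1 to 12 higher and 1 to 5 lower between the CM groups, from 18 to 29 higher and 9 to 17 lower in endoderm over haematopoietic mesoderm, and from 15 to 28 lower in endoderm over the CM mean. Of the 11 list genes past the threshold between the CM groups, 11 passed with the replicate block, 10 by DESeq2 and 6 with all 10 samples in 1 model, where Pafah2, Alox12e, Tbxas1, Ptger1 and Pnpla2 did not pass. Pla2g2f in endoderm and haematopoietic mesoderm and Mgll in endoderm rest on at most 13 counts per sample, which limits their folds, and a fit without 1 of 2 samples assumes that the remaining one varies like the other groups.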

Other observations

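The genes named here were chosen after their values were seen. Of 96 list genes tested over all 10 samples, 26 were higher and 25 lower in endoderm than the CM mean, against 37.2% of all genes tested in either direction. The lower genes numbered 15 without Foxa2+ CM replicate 2, 16 without Foxa2- CM replicate 1, 15 without endoderm replicate 1 and 16 without endoderm replicate 2. Endoderm, in which Pla2g2f was nearly without counts, held other secreted phospholipases. Pla2g10 stood at 3.43 and 3.73 CPM in endoderm and at most 0.405 CPM in CM, a log2 FC over the CM mean of 4.01 (SE 0.40). Pla2g5 had a log2 FC of 3.68 (SE 0.40). Pla2g10 and Pla2g5 passed the expression filter only through endoderm, so their values are a description, though the counts include them. Enpp2, which makes lysophosphatidic acid, stood at 18.9 and 19.1 CPM in endoderm and at most 2.31 CPM in CM, and its receptor Lpar1 at 36.4 and 98.6 CPM against at most 10.8 CPM (adjusted p = 7.06e-05 and 8.92e-05 by edgeR). The leukotriene receptor Cysltr1 stood at 2.17 and 5.40 CPM in endoderm and at most 0.508 CPM in CM. It too passed the expression filter only through endoderm, so its values are a description.

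In haematopoietic mesoderm, 5 of 12 lipoxygenase and leukotriene genes tested were higher and 1 lower than the CM mean by edgeR. Of 19 lysophospholipid and sphingosine phosphate genes 4 were higher and 5 lower. The share of all genes tested was 25.7% in either direction. Alox5ap, which presents arachidonic acid to Alox5, stood at 5.15 and 6.85 CPM and at most 2.03 CPM in any CM sample, a log2 FC over the CM mean of 2.66 (SE 0.41, adjusted p = 0.00160 by edgeR). Ltc4s, which makes leukotriene C, stood at 1.42 and 1.69 CPM and at most 0.621 CPM in CM. These values are a description, since Ltc4s passed the expression filter only through haematopoietic mesoderm, though the counts include it. Spns2, which exports sphingosine phosphate, stood at 23.8 and 59.9 CPM and at most 9.14 CPM in CM (log2 FC 3.44, adjusted p = 0.000890 by edgeR). S1pr1, a receptor for sphingosine phosphate, stood at 61.6 and 65.7 CPM in haematopoietic mesoderm, between 37.1 and 59.5 in Foxa2+ CM, between 15.9 and 32.3 in Foxa2- CM and at 0.418 and 0.559 in endoderm, with a log2 FC over the CM mean of 0.95 (adjusted p = 0.0196 by edgeR). S1pr2 and S1pr3, receptors of the same family, were lower than the CM mean (-1.61 and -2.57, adjusted p = 0.000136 and 0.00214 by edgeR), as was Sgpl1, which breaks sphingosine phosphate down (-0.44, adjusted p = 0.000484 by edgeR). Of the 96 list genes, 19 were higher and 18 lower in haematopoietic mesoderm than the CM mean, against 25.7% of all genes tested.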
